A study of Mus musculus with 6 samples.

Results

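The genes described are 10 through which antigen-presenting cells instruct T cells: the B7 family ligands Cd80, Cd86, Cd274, Pdcd1lg2 and Icosl, the receptor Cd40, and the antigen presentation genes B2m, Nlrc5, Cd74 and Ciita. They were taken by name from a table of 51165 rows, and all 10 were found, had reads in each of the 6 libraries and passed the filter on low counts. Endothelial cells of the liver sinusoids, a vessel lining with open pores, were isolated from 3 NICeCA and 3 wild type C57BL/6 mouse samples aged 7 to 8 weeks. The labels name tamoxifen as the switch for Notch signalling, and animals of both genotypes were injected with it. A Notch target, Hey1, was higher in the NICeCA libraries, as given below. Total RNA was sequenced as paired reads. The labels spell out neither the alleles behind the name NICeCA nor the promoter of its recombinase, nor is it stated whether a library is 1 animal or a pool. The p-values therefore measure only how these libraries vary, a spread that may be technical. The NICeCA libraries carry the numbers 1, 2 and 3 and the wild type libraries 1, 3 and 4.

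Sinusoidal endothelium is known as an unusual antigen-presenting cell. It takes up antigen from the blood, shows peptides on MHC molecules to passing T cells, and tends to leave those T cells tolerant. A T cell needs a peptide on an MHC molecule together with costimulation: CD80 and CD86 engage CD28 on the T cell, or its inhibitory relative CTLA-4, ICOS ligand engages ICOS, and the PD-1 ligands encoded by Cd274 and Pdcd1lg2 restrain the cell. Interferon gamma raises transcription of both MHC transactivators, of Cd274 and of B2m in many cell types.

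Library totals ran from 26254649 to 30034191 counts. Levels are given as CPM, which is counts scaled to a common library size with TMM factors. Ribosomal RNA rows held 5.38% of the counts in wild type 1 and 0.478% to 1.90% elsewhere. The Notch target Hey1 stood at 24.5 to 39.3 CPM in NICeCA and at 5.19 to 6.31 CPM in wild type libraries and was the gene of the 7 checked for Notch activity that passed edgeR's quasi-likelihood test (adjusted p = 0.0367). Sinusoidal markers were abundant in every library, at a summed 11908 to 21061 CPM over 10 genes in NICeCA and 23889 to 24694 CPM in wild type. All 10 of them had a negative fold change, none passed with edgeR and DESeq2 called 2 lower, Clec4g and Fcgr2b. In bulk RNA, fewer cells of a type and less RNA per cell cannot be told apart, and the part of cell composition in the values that follow was not tested.

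None of the 10 genes passed the threshold of an adjusted p under 0.05 by edgeR's quasi-likelihood test, which called 9 of 19795 genes, or 0.0455% (0.0253% as higher), and none passed with limma-voom, which called 0.0253% of all genes. The fold changes of 8 genes were positive and of 2 negative, with a median log2 fold change of 0.80 (NICeCA over wild type), against -0.01 over all genes tested, of which 48.4% were positive. At an unadjusted p under 0.05 there were 4 (Cd80, Nlrc5, Cd274 and Ciita), all higher in NICeCA, where 16.5% of all genes reached that level and 9.12% did so as higher. DESeq2 called 2, Cd80 and Nlrc5, both higher in NICeCA, where it called 5.59% of all genes and 3.66% as higher. In 3 of the 10, Cd80, Nlrc5 and Ciita, the libraries of the 2 genotypes did not overlap in CPM, and all 3 lay higher in NICeCA. Over all genes 23.4% did not overlap, 11.6% with NICeCA higher.

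**Figure D1:**
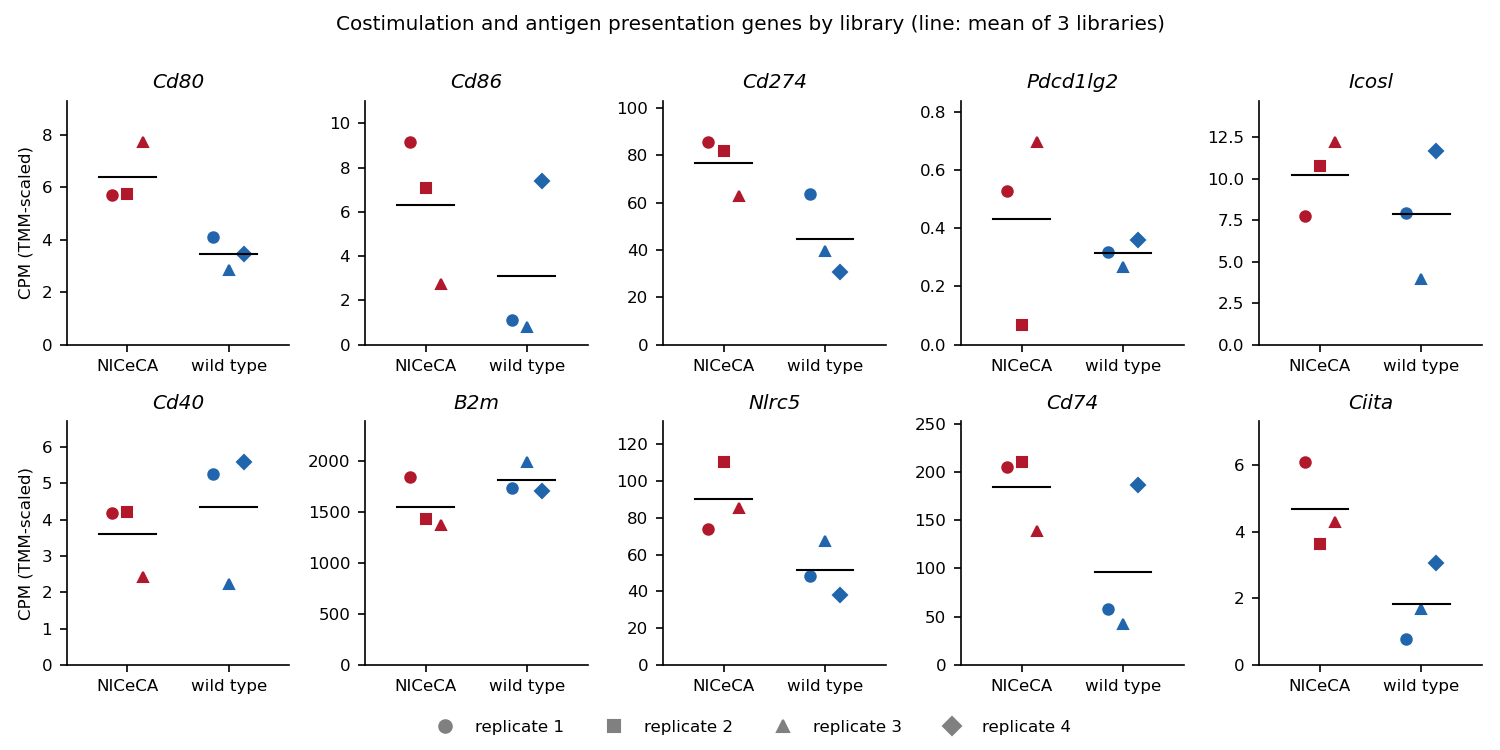
CPM of each of the 10 genes (vertical axes, each from 0) in NICeCA libraries at the left and wild type libraries at the right of each panel, with the symbol giving the replicate number and the line the mean of 3 libraries. The genotypes separate in Cd80, Nlrc5 and Ciita, while in Cd86 and Cd74 wild type 4 lies among the NICeCA libraries, at 7.39 and 186 CPM.

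The deposited gene models, whose build the sources used here do not name, place 3 of the genes on chromosome 16, Cd80 (38455568 to 38498546, plus strand), Cd86 (36568956 to 36666077, minus strand) and Ciita (10480015 to 10528606, plus strand). The others are all on plus strands. Cd274 (29367438 to 29388095) and Pdcd1lg2 (29406240 to 29472927) are neighbours on chromosome 19, and B2m (122147687 to 122153082) and Cd40 (165055604 to 165071654) lie apart on chromosome 2. Icosl is on chromosome 10 (78069368 to 78079525), Cd74 on chromosome 18 (60803849 to 60812652) and Nlrc5 on chromosome 8 (94434354 to 94527272). Rows on the opposite strand overlap Nlrc5, with at most 113 reads in a library, and Cd274, with at most 89, few beside the reads of Nlrc5 and Cd274 themselves. No other row overlaps Cd86, Cd40, Pdcd1lg2 or Ciita.

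Per unit of gene length, the order of the 10 genes was the same in NICeCA and wild type libraries. In the authors' deposited RPKM values B2m came first at 1861 ± 295 in NICeCA and 2052 ± 225 in wild type (SD, n = 3 each), followed by Cd74 at 134 ± 27.0 and 65.6 ± 54.1 and Cd274 at 21.7 ± 3.10 and 11.8 ± 4.23. Next were Nlrc5 at 11.7 ± 2.34 RPKM in NICeCA and 6.33 ± 1.95 RPKM in wild type, Icosl at 3.84 ± 0.911 and 2.76 ± 1.35, and Cd40 at 1.96 ± 0.530 and 2.22 ± 0.921. The lowest levels were those of Cd86 at 1.92 ± 0.983 RPKM in NICeCA and 0.892 ± 1.08 RPKM in wild type, Cd80 at 1.10 ± 0.222 and 0.557 ± 0.0868, Ciita at 0.562 ± 0.151 and 0.210 ± 0.132, and Pdcd1lg2 at 0.129 ± 0.0983 and 0.0878 ± 0.0121. In NICeCA the neighbours Cd40 and Cd86, and Cd86 and Cd80, overlapped between libraries. In wild type the overlapping neighbours were Cd274 with Nlrc5, Icosl with Cd40, Cd40 with Cd86, Cd86 with Cd80, and Ciita with Pdcd1lg2. Among the B7 ligands alone, Cd274 held 75.4 ± 3.14% of the summed RPKM in NICeCA and 72.9 ± 16.2% in wild type (SD, n = 3 each). Its share was lowest in wild type 4, at 54.2%, where Cd86 held 14.1% and Icosl 27.3%.

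**Figure D2:**
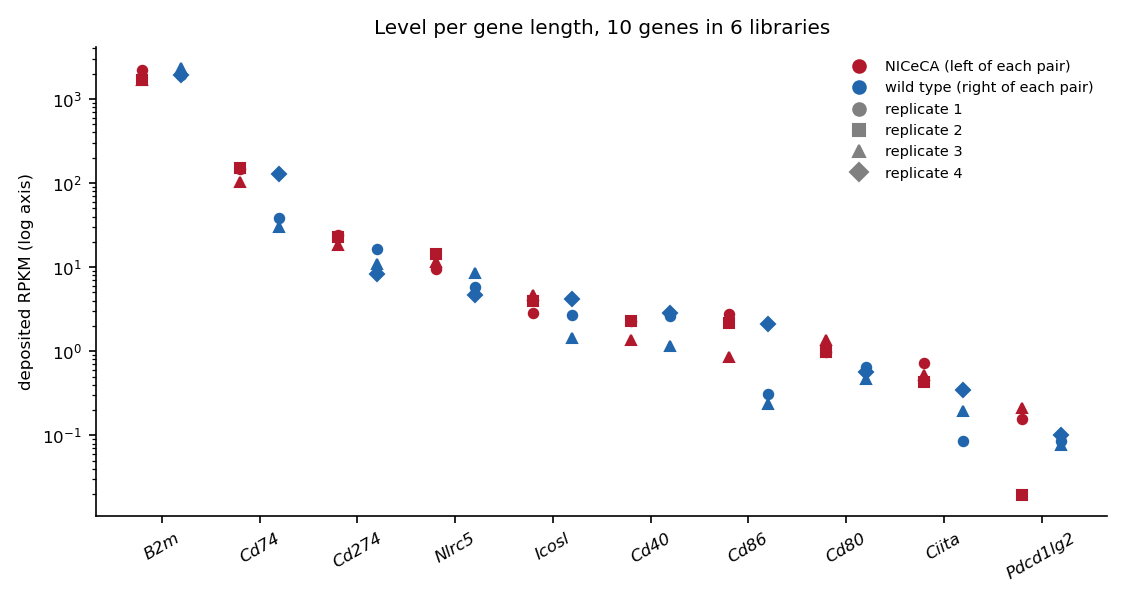
Deposited RPKM (vertical log axis) of the 10 genes in each library, ordered by their mean in NICeCA, with NICeCA points left of wild type points for each gene and symbols for the replicate number. Levels span from B2m at 1689 RPKM or more in every NICeCA library to Pdcd1lg2 at 0.211 RPKM or less in every library.

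Cd80, a costimulatory ligand for CD28 that also binds CTLA-4 and PD-L1, was the gene of the 10 with the smallest p. It was counted 173, 170 and 233 times in NICeCA 1, 2 and 3, against 116, 74 and 96 times in wild type 1, 3 and 4. In CPM these were 5.71, 5.74 and 7.74 in NICeCA, against 4.10, 2.84 and 3.46 in wild type. Each NICeCA library lay above each wild type library, and NICeCA 3 was the highest. The level averaged 6.40 ± 1.16 CPM in NICeCA and 3.46 ± 0.630 CPM in wild type (SD, n = 3 each), 1.84-fold higher, a log2 fold change of 0.88 ± 0.23 (SE). It did not pass with edgeR's quasi-likelihood test (adjusted p = 0.194), while DESeq2 called it (adjusted p = 0.0280). DESeq2 kept that call without NICeCA 1 (adjusted p = 0.0463) or wild type 1 (0.0138) and lost it without any of the other 4 libraries, up to 0.214 without NICeCA 3.

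The protein-coding gene Timmdc1, a mitochondrial assembly factor, overlaps Cd80 on the opposite strand with 204 to 262 reads per library. Whether the authors' counting used strand is not given in the sources used here, so reads shared by Cd80 and Timmdc1 cannot be told apart. The pseudogene Ck-ps3 also overlaps Cd80, on the same strand, with 0 to 37 reads per library, and strand would not separate these. NICeCA 3, the library with the highest Cd80, also had the highest summed level of 10 neutrophil and monocyte markers, 14117 CPM. That sum was 2688 and 3753 CPM in NICeCA 1 and 2, and 811, 126 and 2389 CPM in wild type 1, 3 and 4, with all 10 markers positive in fold change and S100a8 and S100a9 the most abundant. The part of these cells in the Cd80 difference was not tested.

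The genes whose log2 CPM followed Cd80 most closely over the 6 libraries, among 12721 named genes of at least 1 CPM, were Sfmbt2 (Pearson r of 0.999), Thbs1 (0.995), Nr4a1 (0.994), Tspan32 (0.993) and Clp1 (0.993). Nr4a1, an immediate early nuclear receptor, stood at 189, 217 and 299 CPM in NICeCA, against 134, 77.8 and 95.8 CPM in wild type. Thbs1, the matrix glycoprotein thrombospondin 1, stood at 230, 223 and 769 CPM in NICeCA, against 53.1, 12.1 and 17.4 CPM in wild type. These genes share their libraries with Cd80, and the likeness is a description over 6 points. The RefSeq promoter of Cd80 in build GRCm38.p6 is the 250 bases before its annotated start on the plus strand. It is printed beside those of Cd274 and B2m as examples of a costimulatory ligand, an inhibitory ligand and a class I gene. These are 3 of the 5 members whose promoters were searched. Capitals mark matches, on either strand, to 5 motifs: the interferon-stimulated response element core (GAAA, any 2 bases, GAAA), the gamma-activated sequence TTCNNNGAA, the CCAAT box, the core TGGGAA of the Notch effector RBPJ, and an NF-kB site (GGGA, any base, TTTCC).
Cd80, chr16:38458683-38458932: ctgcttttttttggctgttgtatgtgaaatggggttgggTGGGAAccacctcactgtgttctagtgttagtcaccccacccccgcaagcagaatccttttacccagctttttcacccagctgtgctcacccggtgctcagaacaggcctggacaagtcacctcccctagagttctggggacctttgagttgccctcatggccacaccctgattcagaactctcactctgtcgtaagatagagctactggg
Cd274, chr19:29367188-29367437: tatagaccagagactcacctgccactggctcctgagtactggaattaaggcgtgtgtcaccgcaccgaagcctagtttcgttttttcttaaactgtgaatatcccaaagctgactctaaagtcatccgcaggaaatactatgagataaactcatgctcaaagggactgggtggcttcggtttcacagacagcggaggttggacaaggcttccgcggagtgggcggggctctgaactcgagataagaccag
B2m, chr2:122147437-122147686: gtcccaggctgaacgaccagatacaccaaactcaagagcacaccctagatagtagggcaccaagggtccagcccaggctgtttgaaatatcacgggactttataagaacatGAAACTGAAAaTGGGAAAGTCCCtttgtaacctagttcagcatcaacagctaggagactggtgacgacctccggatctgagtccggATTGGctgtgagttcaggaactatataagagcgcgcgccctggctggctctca

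The Cd80 window held 1 match, to the RBPJ core from 211 to 206 bases before the start, a sequence that 21.6% of the 32851 promoters in the RefSeq table also hold. The deposited gene model of Cd80 starts upstream of this window, so the printed start is not the only one annotated. The Cd274 window held none of the 5 sequences, which says only that these letters are not in these bases. RefSeq also gives Cd274 a gene start upstream of this window, at 29362107. The B2m window held an interferon-stimulated response element core from 139 to 130 bases before the start, found in 2.98% of promoters, and an NF-kB sequence from 126 to 117 bases before it, found in 0.356%. Its match to the RBPJ core overlaps that NF-kB sequence, and a CCAAT box in reverse lies from 53 to 49 bases before the start, as in 33.8% of promoters with either orientation. Promoters of 5 of the 10 genes were searched. The search left out chromosome 18, where Cd74 lies, so a promoter of Cd74 was not looked at. In the other pair, Icosl held 2 CCAAT boxes and Pdcd1lg2 none of the 5 sequences. The deposited gene model of Pdcd1lg2 also starts upstream of its window.

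Cd86, the other ligand for CD28 and CTLA-4 and a usual marker of activated macrophages, dendritic cells and B cells, did not separate the genotypes. It stood at 9.18, 7.09 and 2.72 CPM in NICeCA 1, 2 and 3, against 1.09, 0.805 and 7.39 CPM in wild type 1, 3 and 4. Wild type 4 was higher than 2 of the 3 NICeCA libraries, and the groups overlapped. Its log2 fold change of 1.03 ± 0.86 (SE) did not pass with either tool (adjusted p = 0.601 by edgeR and 0.556 by DESeq2). Without wild type 4 it was 2.73 by edgeR (adjusted p = 0.176), and DESeq2 then called it (adjusted p = 0.00022). Without wild type 3 it was 0.57 (edgeR adjusted p = 0.853, DESeq2 0.898).

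The libraries with high Cd86 were those with high Kupffer cell markers. The summed level of 10 markers of these resident liver macrophages was 1635, 1160 and 236 CPM in NICeCA 1, 2 and 3, against 150, 201 and 2164 CPM in wild type 1, 3 and 4. Clec4f, the lectin that defines Kupffer cells, was at 368, 323 and 48.7 CPM in NICeCA and 22.0, 36.9 and 418 CPM in wild type, and none of the 10 markers was at 0 or passed the test. As a percentage of the marker sum, Cd86 was 0.561%, 0.612% and 1.15% in NICeCA and 0.728%, 0.401% and 0.342% in wild type. The part of these cells in the values of Cd86 was not tested.

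**Figure D3:**
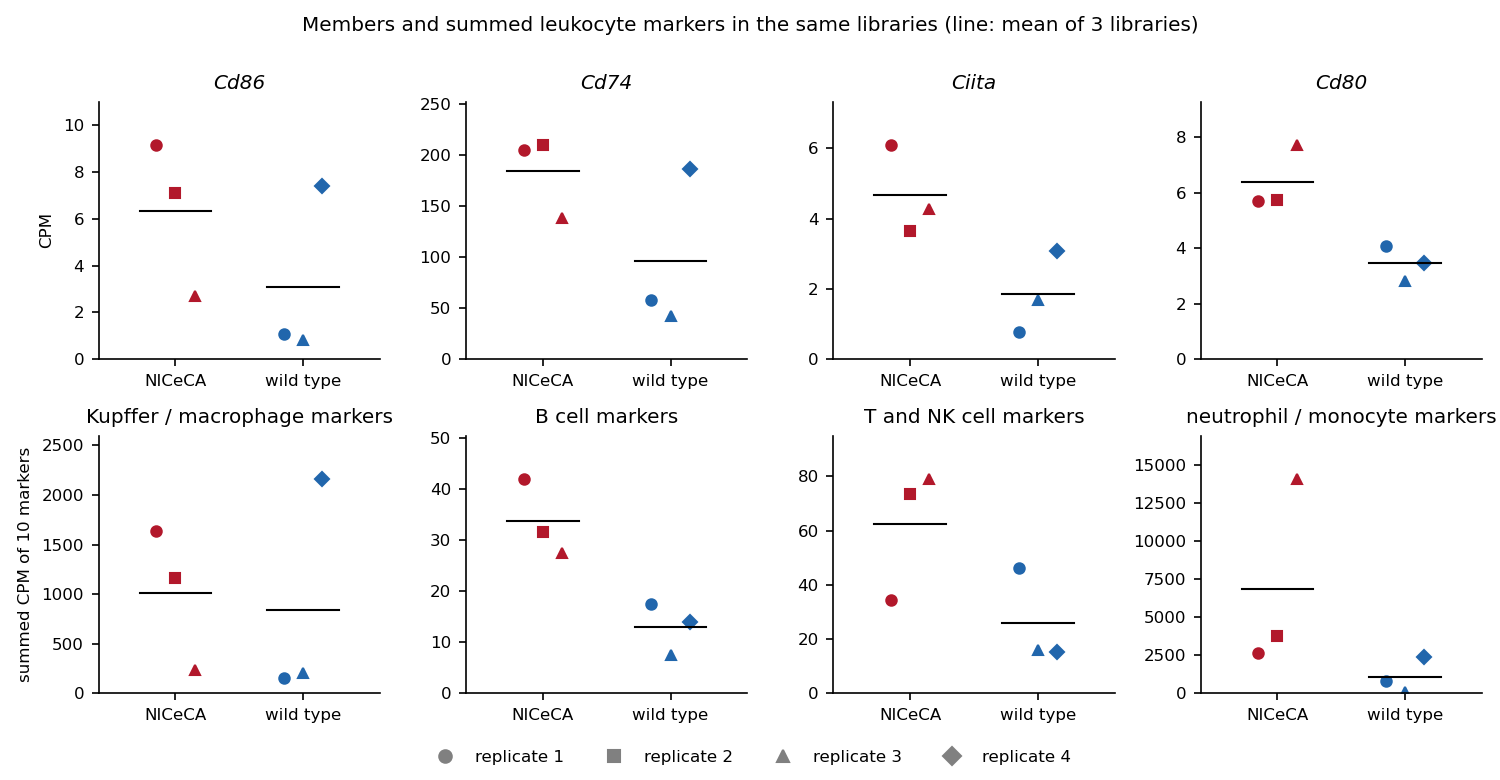
CPM of Cd86, Cd74, Ciita and Cd80 (upper row) and the summed CPM of 10 markers each of Kupffer cells, B cells, T and NK cells, and neutrophils and monocytes (lower row) in NICeCA libraries at the left and wild type libraries at the right, with lines at the means of 3 libraries. Cd86 and the Kupffer sum share their 3 highest libraries, NICeCA 1, NICeCA 2 and wild type 4, and the B cell sum is higher in each NICeCA library than in each wild type library.

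Cd274 encodes PD-L1, the inhibitory ligand by which sinusoidal endothelium is known to restrain CD8 T cells, and was the most abundant B7 ligand per length in every library. It had 2601, 2419 and 1895 reads in NICeCA, against 1800, 1030 and 851 in wild type, which are 85.9, 81.7 and 62.9 CPM and 63.6, 39.5 and 30.7 CPM. NICeCA 3 and wild type 1 met at nearly the same CPM, and the other 2 NICeCA libraries lay above all wild type libraries. In the deposited RPKM, which is scaled by library total alone, NICeCA 3 at 18.2 lay above wild type 1 at 16.5. The mean was 76.8 ± 12.2 CPM in NICeCA and 44.6 ± 17.0 CPM in wild type (SD, n = 3 each), a log2 fold change of 0.79 ± 0.27 (SE) that passed with neither edgeR (adjusted p = 0.236) nor DESeq2 (0.0862). Without wild type 1 it was 1.12 by edgeR, still not passing (adjusted p = 0.0975), and DESeq2 called it (adjusted p = 5.0e-05). The lowest value was 0.57 by edgeR without wild type 4 (adjusted p = 0.340, DESeq2 0.268), and DESeq2 did not call Cd274 when a library other than wild type 1 was left out, up to an adjusted p of 0.373 without wild type 3.

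Pdcd1lg2, the gene of the second PD-1 ligand PD-L2, lies beside Cd274 on chromosome 19 and was barely counted. It had 16, 2 and 21 reads in NICeCA, against 9, 7 and 10 in wild type. NICeCA 2 was the lowest library and NICeCA 3 the highest, so the groups overlapped and a difference was not detectable at this depth (log2 fold change 0.45 ± 0.72, SE, edgeR adjusted p = 0.807). Its direction turned without NICeCA 3, to -0.08.

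Icosl, the ligand of the T cell receptor ICOS, had 7.72, 10.7 and 12.2 CPM in NICeCA, against 7.91, 3.95 and 11.7 CPM in wild type. The groups overlapped, with wild type 3 the one low library, and the log2 fold change of 0.38 ± 0.38 (SE) did not pass (edgeR adjusted p = 0.669). It was 0.06 without wild type 3 and 0.78 without wild type 4, and passed in neither run. Cd40, the receptor through which T cell CD40 ligand licenses antigen-presenting cells, had 4.19, 4.22 and 2.42 CPM in NICeCA, against 5.26, 2.22 and 5.59 CPM in wild type. These values overlapped too, at a log2 fold change of -0.27 ± 0.40 (SE, edgeR adjusted p = 0.786), and ran from -0.59 without wild type 3 to -0.05 without NICeCA 3.

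In CD40 and NF-kB signalling 12 genes were tested, and 10 were positive in fold change and 2 negative. Their median was 0.14 on the log2 scale and none passed with edgeR or DESeq2. The 3 with the smallest p were the adaptor Traf1 at 0.65 ± 0.34, the NF-kB inhibitor Tnfaip3 at 0.69 ± 0.36 and the kinase gene Map3k14 at 0.40 ± 0.22 (log2 fold change ± SE, edgeR). Of 13 tested genes for other costimulatory or inhibitory ligands, 8 were positive and 5 negative with a median of 0.10, and edgeR called none. The 3 with the smallest p there were Cd47, a signal against phagocytosis, the checkpoint gene Vsir (4632428N05Rik in the table) and Clec4g, a sinusoidal lectin known to inhibit T cells. Cd47 was at 240 to 289 CPM in NICeCA and 330 to 360 CPM in wild type, at -0.36 ± 0.12 on the log2 scale (edgeR adjusted p = 0.221, DESeq2 0.0797). Vsir was at 423 to 537 CPM in NICeCA and 360 to 387 CPM in wild type, at 0.41 ± 0.13 (edgeR 0.222, DESeq2 0.0739). Clec4g was at 1416 to 2315 CPM in NICeCA and 2627 to 3632 CPM in wild type, at -0.72 ± 0.24, and was the 1 gene of this list that DESeq2 called (edgeR adjusted p = 0.234, DESeq2 0.0381). Clec4g is also among the sinusoidal markers above, so this is the same call given there.

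B2m, the light chain that every class I molecule needs to reach the cell surface, was the most abundant of the 10 genes. It stood at 1851, 1429 and 1378 CPM in NICeCA, against 1735, 1996 and 1711 CPM in wild type. NICeCA 1 lay inside the wild type range and the other 2 NICeCA libraries below it. The log2 fold change was -0.22 ± 0.18 (SE), negative also without each library in turn (-0.37 to -0.15), and did not pass (edgeR adjusted p = 0.582). The classical class I heavy chains that B2m pairs with could not be measured, since the rows of H2-K1 and H2-D1 held 0 throughout. Of the 45 rows whose names begin with H2, 29 were at 0 throughout, and 32 are placed on sequences other than the main chromosomes. H2-T23, a non-classical class I gene, was counted, at 186 to 238 CPM in NICeCA and 221 to 274 CPM in wild type (log2 fold change -0.21 ± 0.14, edgeR adjusted p = 0.499), but reads of such near-identical genes may be split by the counting. Mr1, which presents microbial vitamin metabolites, had 16.8 to 24.5 CPM in NICeCA and 28.9 to 32.7 CPM in wild type, at -0.52 ± 0.16 (edgeR adjusted p = 0.213), and the lipid-presenting Cd1d1 had 0.06 ± 0.23.

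Nlrc5 is the transactivator of class I genes, B2m included. It had 74.0, 110 and 85.6 CPM in NICeCA, against 48.5, 67.5 and 38.2 CPM in wild type. All NICeCA libraries lay above all wild type libraries, by the narrowest gap between NICeCA 1 and wild type 3. The mean was 90.0 ± 18.6 CPM in NICeCA and 51.4 ± 14.8 CPM in wild type (SD, n = 3 each), 1.75-fold higher, with a log2 fold change of 0.81 ± 0.24 (SE). It did not pass with edgeR (adjusted p = 0.203), and DESeq2 called it (adjusted p = 0.0362). DESeq2 kept the call without NICeCA 1 (0.0292) or wild type 3 (0.00327) and lost it without NICeCA 2, NICeCA 3, wild type 1 or wild type 4, up to 0.267. Nlrc5 and B2m had fold changes of opposite sign in the same libraries, B2m's with overlap between the groups. Of 10 tested class I peptide loading genes, 2 were positive and 8 negative, at a median of -0.09 on the log2 scale, and neither tool called any. Tapbpl, a peptide editor, stood at -0.42 ± 0.16, the translocon gene Sec61a1 at -0.17 ± 0.10 and the peptide-trimming Erap1 at -0.19 ± 0.15 (log2 fold change ± SE). The transporter gene Tap2, Tapbp and the immunoproteasome genes Psmb8 and Psmb9 were listed at 0 throughout. They could not be measured, and the numbers of positive and negative loading genes leave them out.

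Cd74, the invariant chain that escorts class II molecules and keeps peptide out of them until they reach the endosome, had 205, 210 and 138 CPM in NICeCA, against 58.3, 42.8 and 186 CPM in wild type. Wild type 4 lay among the NICeCA libraries, and wild type 1 and 3 lay below all others, as they did for Cd86. The log2 fold change was 0.95 ± 0.53 (SE) and did not pass (edgeR adjusted p = 0.422, DESeq2 0.285). Without wild type 4 it was 1.86 by edgeR (adjusted p = 0.121), and DESeq2 called it (adjusted p = 2.98e-09), while without wild type 3 it was 0.59 (edgeR adjusted p = 0.707, DESeq2 0.737). Like Cd86, Cd74 was highest in NICeCA 1, NICeCA 2 and wild type 4, the libraries with the highest Kupffer marker sums. As a percentage of that sum Cd74 was 12.5%, 18.1% and 58.5% in NICeCA and 38.8%, 21.3% and 8.61% in wild type. This ratio was highest in NICeCA 3 and lowest in wild type 4, as it was for Cd86. The part of Kupffer cells in the values of Cd74 was not tested.

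Ciita, the master regulator of class II genes, had 185, 108 and 129 reads in NICeCA, against 22, 44 and 85 in wild type. In CPM these were 6.11, 3.65 and 4.28 in NICeCA, against 0.777, 1.69 and 3.07 in wild type. The groups did not overlap, and wild type 4 was the wild type library nearest to the NICeCA libraries. The log2 fold change of 1.34 ± 0.49 (SE), or 2.54-fold, passed with neither edgeR (adjusted p = 0.250) nor DESeq2 (0.0888). Without wild type 4 it was 1.92 by edgeR (adjusted p = 0.186) and DESeq2 called it (0.00194), whereas without wild type 1 it was 0.97 by edgeR (adjusted p = 0.261) and DESeq2 did not (0.158). DESeq2 did not call Ciita without any of the other 4 libraries either, up to an adjusted p of 0.356. The class II chains that Ciita controls could not be read: H2-Ab1, H2-Eb1, H2-DMa and H2-DMb1 were listed at 0, and H2-Aa had 1 read in NICeCA 1 and none elsewhere.

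B cells and dendritic cells also use Ciita and Cd74. The summed level of 10 B cell markers was 42.0, 31.7 and 27.5 CPM in NICeCA, against 17.5, 7.51 and 14.0 CPM in wild type, with 9 of 10 positive, none at 0 throughout and 5 called higher by DESeq2. The B cell receptor component Cd79a was at 3.68 to 4.69 CPM in NICeCA and 0.541 to 2.65 CPM in wild type. The dendritic cell list summed to 232 to 268 CPM in NICeCA and 286 to 305 CPM in wild type, nearly all of it Zbtb46 and Clec9a, the 2 of its 7 tested markers that were negative. The other 5 were positive, the median log2 fold change of the 7 was 1.48, edgeR called none and DESeq2 called Itgax and Ccr7 higher. Itgax, the integrin CD11c, was at 6.83 to 17.8 CPM in NICeCA and 1.26 to 6.07 CPM in wild type (DESeq2 adjusted p = 0.0147, edgeR 0.214). Several markers were low, with Xcr1 at 0.594 to 0.811 CPM in NICeCA and 0.0706 to 0.361 CPM in wild type, Flt3 at 0.531 CPM or less, and Clec10a listed at 0. Ccr7, the homing receptor of mature dendritic cells and lymphocytes, was at 3.45 to 5.08 CPM in NICeCA and 0.938 to 1.98 CPM in wild type, and DESeq2 called it (adjusted p = 0.00126) while edgeR did not (0.153). The part of B cells and dendritic cells in the Ciita and Cd74 values was not tested.

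The class II assembly and peptide supply list had 3 positive and 6 negative of 9 tested genes, a median of -0.28 and no call by either tool. The lysosomal genes with the smallest p were the protease genes Ctsl at -0.61 ± 0.24 and Ctsd at -0.35 ± 0.17, and Lamp1 at -0.43 ± 0.18 (log2 fold change ± SE, edgeR adjusted p from 0.272 to 0.356). Of 9 general MHC gene transcription factors, 7 were negative with a median of -0.09 and none passed with either tool, the NF-Y subunits Nfyb at -0.24 ± 0.12, Nfyc at -0.31 ± 0.19 and Nfya at -0.16 ± 0.10 having the smallest p.

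**Figure D4:**
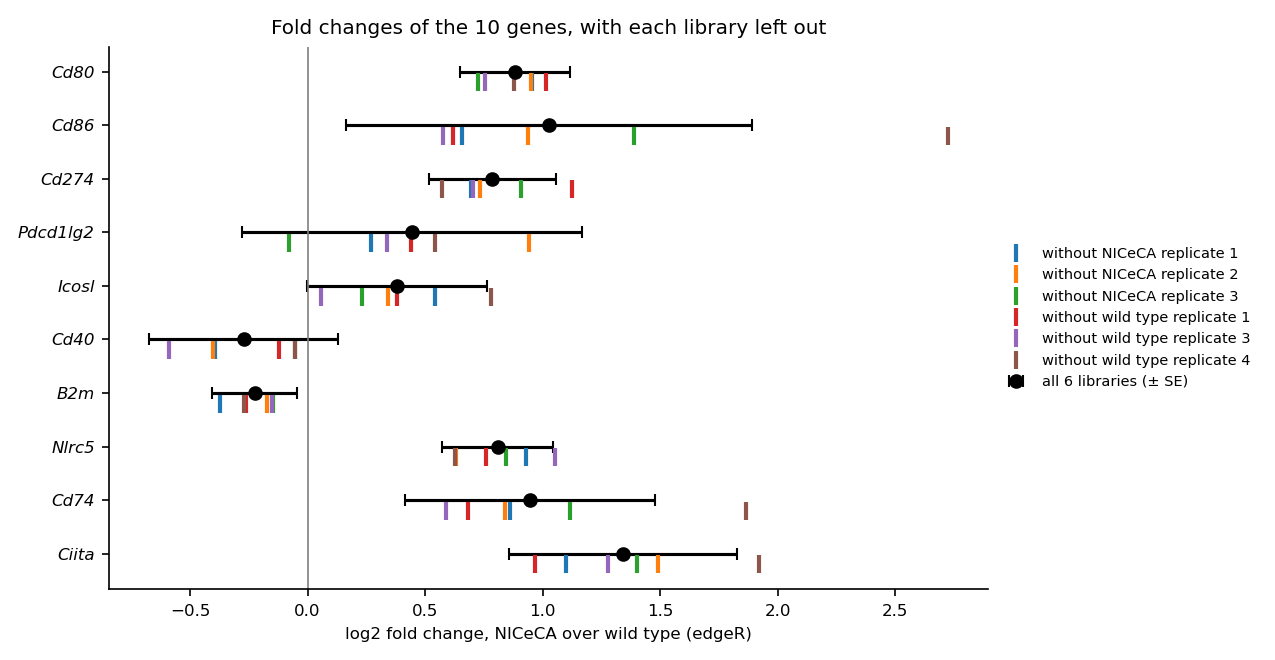
Log2 fold change (NICeCA over wild type, edgeR) of the 10 genes with all 6 libraries (points, bars are ± SE) and with each library left out (coloured ticks under each point). Cd86 runs from 0.57 to 2.73 and Cd74 from 0.59 to 1.86 depending on the library left out, against 0.72 to 1.01 for Cd80 and 0.63 to 1.05 for Nlrc5.

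Of 12 tested genes of interferon gamma signalling, 5 were positive and 7 negative, at a median of -0.02, with no call by edgeR and 1 by DESeq2, Ifng. Ifng itself, the cytokine made by T and NK cells, was at 2.94, 6.86 and 14.6 CPM in NICeCA, against 2.68, 0.575 and 0.685 CPM in wild type. All NICeCA libraries lay above all wild type libraries, narrowly so for NICeCA 1 over wild type 1, at a log2 fold change of 2.62 ± 0.78 (SE, edgeR adjusted p = 0.204), and DESeq2 called it (0.00665). The feedback inhibitor Socs3 was at -0.39 ± 0.17, the receptor gene Ifngr2 at -0.21 ± 0.12 and the transcription factor gene Irf1 at -0.02 ± 0.22 (log2 fold change ± SE), none of them called by either tool.

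On the T cell side, the counts for receptors of the B7 ligands were too low to test, with Cd28, Ctla4, Icos and Pdcd1 each at 0.266 CPM or less in every library. The rows of Cd28, Ctla4 and Icos, unlike that of Pdcd1, are placed on sequences other than the main chromosomes. Their low counts therefore cannot be read as low expression. Cd40lg, the ligand of CD40, was tested at a log2 fold change of 0.81 ± 1.10 (SE, edgeR adjusted p = 0.765). The list of 12 T cell surface genes also holds the MHC coreceptors and receptors of other ligands. Of the 7 tested, Cd40lg among them, 6 were positive and 1 negative, with a median of 1.94 that rests mostly on those other receptors, and edgeR called none. Btla, an inhibitory receptor of B and T cells, was at 1.93 to 2.99 CPM in NICeCA and 0.192 to 0.565 CPM in wild type, with a log2 fold change of 2.80 ± 0.45 (SE, edgeR adjusted p = 0.097), and DESeq2 called it and Cd4 (2.15 ± 0.54). Cd226, an activating receptor, stood at 2.21 ± 0.90. Cd8a overlapped between the groups, at 3.57, 25.3 and 34.9 CPM in NICeCA and 14.4, 0.996 and 1.23 CPM in wild type. The summed level of 10 T and NK cell markers was 34.3, 73.4 and 79.1 CPM in NICeCA, against 46.1, 16.1 and 15.4 CPM in wild type, so wild type 1 lay above NICeCA 1. The part of these cells in the values of Ifng and of the receptors was not tested.

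Of 15 tested mediators of tolerance known from sinusoidal endothelium, 7 were positive and 8 negative with a median of -0.06, and edgeR called none. Lgals1, the T cell inhibitory lectin galectin 1, was at 17.6 to 29.5 CPM in NICeCA and 35.1 to 67.2 CPM in wild type, with a log2 fold change of -1.03 ± 0.28 (SE, edgeR adjusted p = 0.194), and DESeq2 called it lower (0.0147). Tnfsf10, the death ligand TRAIL, was at -0.50 ± 0.16 (edgeR 0.221). Il10ra, the ligand-binding chain of the interleukin 10 receptor, was at 29.5 to 39.8 CPM in NICeCA and 5.29 to 21.7 CPM in wild type, at 1.36 ± 0.45, and DESeq2 called it (0.0340). The mannose receptor gene Mrc1 and Fcgr2b, scavenger and Fc receptors of these cells, stood at -0.54 ± 0.23 and -0.68 ± 0.22, of which DESeq2 called Fcgr2b lower (0.0405). Both are also among the sinusoidal markers above.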

How the data were processed

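The authors deposited a table of whole-number read counts per gene for 6 libraries with RPKM beside them. Per the file headers and values, RPKM is the count over gene length and library total (largest relative gap 5.0e-06 over counts of 50 or more). The sources used here name no aligner, build, annotation or use of strand. Of the coordinates of the 10 genes, 3 equal RefSeq GRCm38.p6. Counts were tested with edgeR 4.0.16 in R 4.3.3 (filterByExpr at its minimum count of 10, TMM, glmQLFit, glmQLFTest), 19795 genes kept, with Benjamini-Hochberg adjustment over all of them and a threshold of 0.05. The SE is the log2 fold change over the square root of F. DESeq2 1.42.0 and limma 3.58.1 (voom) were alternatives. DESeq2 gives Pdcd1lg2 no adjusted p.

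Counts of the 19795 genes were simulated for this comparison with 100 genes changed 2-fold and 100 changed 4-fold. On these, edgeR recovered 22% of 2-fold and 81% of 4-fold changes, with 6 of 109 calls false. DESeq2 recovered 55% and 93%, with 53 of 201 calls false. In the data 16.5% of genes were at an unadjusted p under 0.05 by edgeR, so these rates need not carry over to them. The genes, lists and tests were chosen with earlier results of these data known. Genes named beyond the 10 are, per list, those past the threshold or else the 3 with the smallest p, and the 5 most like the member with the smallest p. Chosen with their values in view were the genes listed at 0 or low, the remaining marker genes, Irf1, Cd8a, Cd40lg, Mrc1, Fcgr2b, Timmdc1 and Ck-ps3. Symbols missing from the table were matched through RefSeq synonyms.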

Additional observations from a re-analysis of the deposited data

How the results depend on the processing

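With edgeR's quasi-likelihood test no member passed under any scaling, filter, prior or set of libraries, nor with limma-voom. DESeq2 called 2 members with all libraries and 0 to 3 when each library was left out. Over all genes, 9 passed, against 1107 with DESeq2, 5 with limma-voom and 111 with no low-count filter. Leaving out each library gave 0 to 14 genes with edgeR and 1388, 528, 386, 1455, 610 and 1176 with DESeq2 (without NICeCA 1, 2 and 3 and wild type 1, 3 and 4), where these DESeq2 runs were chosen after seeing the data. With the replicate block 0 genes passed, 1596 at an unadjusted p under 0.05. Numbers 1 and 3 occur in both genotypes, while NICeCA 2 and wild type 4 are each alone in a block. Those libraries add nothing to the blocked contrast, which rests on NICeCA 1 and 3 and wild type 1 and 3. Under the block Ciita was at 2.13, Cd86 at 2.44, Cd74 at 1.75, Icosl at 0.79 and Pdcd1lg2 at 1.04, and Nlrc5 at 0.48, Cd274 at 0.55 and Cd40 at -0.11 (log2 fold change). Deviations of same-numbered libraries correlated at -0.21 (number 1) and -0.295 (number 3). For NICeCA 1 with wild type 3 the value was 0.239, and for NICeCA 3 with wild type 1 it was 0.0581. With only 2 shared numbers, these values cannot decide whether the numbers pair the samples. Pdcd1lg2 reversed with limma-voom (log2 fold change -0.046) and without NICeCA 3 (-0.0799 by edgeR, -0.0871 by DESeq2), and was highest without NICeCA 2 (0.942 by edgeR, 0.954 by DESeq2). Of the tested settings none reversed another member. The cause of these differences was not tested. At 2 to 21 reads, depth limits Pdcd1lg2, and class I and II chains and class I peptide loading genes listed at 0 cannot be assessed.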
